A study of Homo sapiens with 2 samples.

Results

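The ribosome genes described here are the genes that the authors' deposited table lists as changed under the KEGG pathway Ribosome, without genes whose symbol starts with MT-. They were chosen by the authors' own call of change between the 2 libraries, so their presence in the list and their direction are descriptions. There are 36 of them among 2238 distinct genes listed under any of 327 pathways. The Ribosome entry itself holds 37 genes, and the 1 left out is the mitochondrially encoded ribosomal RNA MT-RNR1, listed as up. RNA came from SNU-449, an established human hepatocellular carcinoma cell line grown in RPMI 1640 medium with fetal bovine serum. There was 1 library of control cells and 1 library of cells treated for 24 h with ezetimibe, which lowers cholesterol by blocking NPC1L1, a sterol transporter. The sources used here give neither a dose nor a vehicle. With 1 library per condition no difference has a replicate check, and every statement describes these 2 libraries only. The table gives a direction for each gene and no level, fold change or p, so sequencing depth is unknown, and the label of the cell line could not be checked by expression level. The name of the comparison puts ezetimibe first, so up is taken to mean higher in the treated library; this order could not be checked by any value.

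Ribosomes translate messenger RNA into protein and consist of a small subunit, which reads the message, and a large subunit, which joins amino acids. Human cells hold a cytosolic ribosome, whose proteins carry the prefixes RPS (small) and RPL (large), and a separate mitochondrial ribosome, whose proteins (MRPS and MRPL) are encoded in the nucleus and imported. The messages of cytosolic ribosomal proteins are known to open with a run of pyrimidines, the terminal oligopyrimidine tract, through which mTOR and the RNA-binding protein LARP1 control their translation. Transformed liver cells, like other dividing cells, devote much of their RNA and protein synthesis to making ribosomes.

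The start regions show a run of pyrimidines at or near the annotated start in most members listed as up. None is seen in the 2 members listed as down that the sequence table holds. These are of other kinds, RPS27L being a paralog and MRPL19 a mitochondrial ribosome gene. A run near an annotated start is not by itself the tract that opens a message, since the start used in these cells was not measured. Each line below gives 30 bases of reference sequence (RefSeq, GRCh38.p14), 15 before the annotated transcription start and 15 from it, read 5′ to 3′ on the strand of the gene. Capitals mark the longest run of 5 or more C or T bases that reaches within 5 bases of the start, as far as the printed window shows it. RPL10 has 3 annotated starts, and all are shown. FAU, RPL22L1 and RPS27 were added after the windows were seen, the last 2 because they stand beside a paralog or are one. FAU has the longest run of all members in the sequence table, 16 bases, so the printed windows do not stand for the members at large. RPL27, listed as up, has no run that reaches within 5 bases of the start and is not printed.
RPL10, first start, up, chrX:154398050-154398079, plus strand: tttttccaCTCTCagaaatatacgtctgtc
RPL10, second start, up, chrX:154398362-154398391, plus strand: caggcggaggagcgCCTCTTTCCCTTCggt
RPL10, the third start, up, chrX:154398482-154398511, plus strand: tctttttcgttgcagccactgaagatcctg
RPL10A, up, chr6:35468386-35468415, plus strand: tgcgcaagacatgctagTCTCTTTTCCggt
RPS14, up, chr5:150449725-150449754, minus strand: ccgccccctcccaCTCTCTCTTTCCggtgt
RPS16, up, chr19:39435935-39435964, minus strand: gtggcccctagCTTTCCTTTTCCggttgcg
FAU, up, chr11:65122120-65122149, minus strand: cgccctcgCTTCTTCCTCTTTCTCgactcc
RPL22L1, up, chr3:170870181-170870210, minus strand: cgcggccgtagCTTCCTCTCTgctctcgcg
RPS27, up, chr1:153990747-153990776, plus strand: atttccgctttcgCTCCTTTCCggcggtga
RPS27L, down, chr15:63157463-63157492, minus strand: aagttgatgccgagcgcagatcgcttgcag
MRPL19, down, chr2:75646768-75646797, plus strand: tgattactgggagctgtagtcttgacgtga

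Of the 36 members, 33 were listed as up and 3 as down, a share up of 91.7%. Over all 2238 listed genes 728 were up and 1510 down, a share up of 32.5%. Of the 8877 background genes, 25.2% were listed as changed, 8.2% as up and 17.0% as down. In the Ribosome pathway 20.8% of its 178 background genes were listed. These shares come from the contrast that chose the members and are given as a description. In the authors' deposited table the pathway had a rich factor of 0.824, with p = 1 and q = 1. The rich factor divides a pathway's part of the changed genes by its part of the background, so the pathway held fewer changed genes than its size would give.

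The 3 members listed as down were RPS27L, MRPL13 and MRPL19. RPS27L is a paralog of the small subunit protein RPS27 and a known p53 target. MRPL13 and MRPL19 are large subunit proteins of the mitochondrial ribosome. Of the 32 cytosolic members 31 were up, and of the 4 mitochondrial members 2 were up and 2 were down. Without the paralogs RPL22L1 and RPS27L and the read-through gene RPS10-NUDT3, all 29 cytosolic members were up.

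The large subunit of the cytosolic ribosome gave 17 members of the 43 genes in the list used here, all up. They included RPL4, RPL8, RPL10, RPL10A, RPL12, RPL13, RPL13A, RPL18, RPL19, RPL27, RPL28, RPL32, RPL35A, RPL36, RPL37 and RPL37A. Several sit at working parts of the subunit. RPL8 lies close to the peptidyl transferase centre, where the peptide bond is formed, and RPL10 is a late-joining protein needed before the subunit can work. RPL4 lines the tunnel through which the new chain leaves. RPL10A forms the mobile stalk near the exit site of transfer RNA, and RPL12 belongs to the base of the other stalk, where elongation factors bind. RPL19 makes a bridge to the small subunit. RPL13A is also known as part of a complex that silences translation of inflammatory messages after interferon-gamma. RPL18, RPL27 and RPL35A are among the genes mutated in Diamond-Blackfan anaemia, an inherited failure of red cell production. Of the 3 acidic stalk genes, RPLP1 was up and RPLP0 and RPLP2 were not listed.

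The small subunit gave 10 members of the 32 genes in its list, again all up, among them RPS9, RPS14, RPS16, RPS18, RPS21, RPS23 and RPS27. RPS23 lies at the decoding centre, RPS9 at the entry of the message channel, and RPS16 reaches the transfer RNA in the peptidyl site. RPS14 is the gene whose loss on the long arm of chromosome 5 underlies the anaemia of the 5q- syndrome. FAU, which encodes the ribosomal protein RPS30 fused to a ubiquitin-like protein, was up, whereas RPS27A, whose ribosomal protein is fused to ubiquitin, was not listed. Altogether 29 of the 81 canonical cytosolic genes in these lists were listed (35.8%). The other 52, among them RPL3, RPL5, RPL11, RPS3, RPS6 and RPS19, were not listed. Absence from the table can mean no call of change, no detection or no pathway annotation, which the table does not separate.

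Paralogs were split. RPL22L1, a paralog of RPL22 that can take its place in the ribosome, was up, and RPL22 was not listed. RPS27L (ENSG00000185088; minus strand of chromosome 15, from 63125872 to 63158021 on GRCh38 by GENCODE release 29) was down, and RPS27 (ENSG00000177954; chromosome 1, 153990755 to 153992155, plus strand) was up. The other 7 genes of the paralog list, RPL3L, RPL7L1, RPL10L, RPL26L1, RPL36AL, RPL39L and RSL24D1, were not listed. RPS10-NUDT3, listed as up, is a read-through gene on chromosome 6 (34284887 to 34426071, minus strand) that joins RPS10 to its neighbour NUDT3. It shares exons with both, and neither RPS10 nor NUDT3 was listed, so reads of the 3 genes may have been split among them and this member is uncertain.

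The mitochondrial ribosome gave 4 members of the 81 genes in its lists (4.94%), all of the large subunit. MRPL2 and MRPL21 were up and MRPL13 and MRPL19 down. None of the 32 small subunit genes and none of 10 genes of mitochondrial translation, including the elongation factors TUFM, TSFM and GFM1, was listed. The KEGG pathway leaves out part of the mitochondrial proteins, so some of these genes had no chance of being listed, and no difference between the compartments was tested.

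Other genes of the translation machinery were listed in both directions, except those of elongation and release. Of 14 elongation and release genes 5 were listed, all as up: the elongation factor EEF2, which moves the ribosome along the message, the factor EEF1A2, which brings transfer RNA, its exchange factor subunits EEF1D and EEF1G, and the rescue factor PELO. Of 55 initiation genes 9 were up and 7 down. Those named by the rule as up were EIF1, EIF1B, the kinase EIF2AK3 (PERK), which slows initiation under stress of the endoplasmic reticulum, EIF2B2, EIF3D and EIF3F. Those named by the rule as down were EIF1AX, the kinase EIF2AK2 (PKR), EIF3E, the cap-binding protein EIF4E, its inhibitor EIF4EBP2 and the scaffold EIF4G3. Outside the rule, the related inhibitor EIF4EBP1 was listed as up and RPS6KB1 as down. Of 72 ribosome assembly genes 17 were up and 8 down, with CSNK2B, EFTUD1, EIF6, EMG1, IMP4 and LSG1 among the former and AK6, DROSHA, NOP58, NXT2, POP1 and SPATA5 among the latter. EFTUD1 and EIF6 act together, the first being the GTPase that helps to release the second from the new large subunit. Of the 24 subunit genes of RNA polymerases I and III, which make ribosomal RNA and transfer RNA, POLR1C, POLR1D, ZNRD1, POLR3C, POLR3D and POLR3E were up, and 6 were down, among them TWISTNB, POLR2K, POLR2L, POLR3GL and POLR3K. Over these 5 lists, mitochondrial translation included, 37 of 58 listed genes were up, a share of 63.8%, against 32.5% of all listed genes. In the authors' deposited table the pathway Ribosome biogenesis in eukaryotes had 18 genes up and 8 down (p = 1), and RNA transport, which holds many initiation factors, 20 up and 40 down (p = 0.0625).

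**Figure D1:**
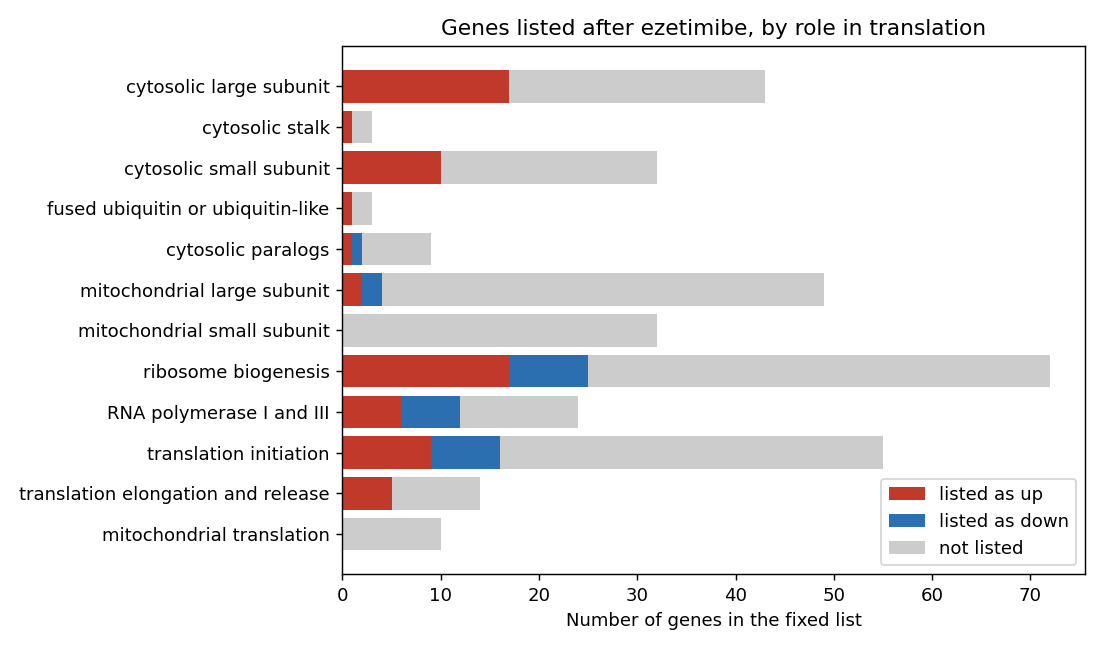
Number of genes (horizontal axis) of each list of translation genes that the deposited table lists as up (red) or down (blue) after ezetimibe, or does not list (grey). The 29 listed canonical cytosolic ribosomal protein genes are all up, whereas biogenesis, polymerase and initiation genes are split.

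None of the 36 members was listed under any other pathway of the table. They therefore add to no other enrichment in it. The members lie on 14 chromosomes, with 8 on chromosome 19, among them RPL13A, RPL18, RPL28, RPL36, RPS9 and RPS16. That is 22.2% of the members, against 5.32% of all listed genes and 11.0% of all genes listed as up. Of the canonical cytosolic ribosomal protein genes, 8 of the 29 listed (27.6%) and 5 of the 52 not listed (9.62%) lie there. These differences were not tested.

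Members were compared with the other listed genes in base composition and length, since in this table the direction of a gene went with both. The longest transcript of the members had a median GC content of 50.1% (range 33.5 to 63.1), against 47.0% for all listed genes and 55.2% for all genes listed as up. With the shortest coding transcript of each gene the members and all listed genes lay closer, at 51.8% and 51.0%. The 3 members listed as down had 33.5% (MRPL13), 38.3% (MRPL19) and 43.3% (RPS27L), and those up ranged from 42.6% (RPL22L1) to 63.1% (RPL8). The ranges overlap only through RPS27L, which lies above RPL22L1 and RPL37. Both mitochondrial members listed as up, MRPL2 with 55.4% and MRPL21 with 59.9%, had more GC than both listed as down. Among listed genes below the median GC content of 47.0%, 11 of 14 members were up (11 of the 12 cytosolic and neither of the mitochondrial ones), against 127 of 1104 other genes (11.5%). At or above the median all 22 members were up, against 51.8% of other genes. The part of base composition in the members' direction was not tested.

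Members were shorter than the listed genes as a whole. Their longest transcripts had a median of 2232.5 bases and their gene spans a median of 5414.5 bases, against 3850 and 36616 bases for all listed genes. All genes listed as up had medians of 2859.5 and 17891.5 bases. Canonical cytosolic ribosomal protein genes that were not listed had 1674.5 and 5778 bases, so short genes were not particular to the members. The 3 members listed as down had spans of 32150 bases (RPS27L), 44069 (MRPL19) and 64642 (MRPL13), and among those up only RPS10-NUDT3 (141185), RPL37A (80992) and RPS9 (48262) spanned more than RPS27L. Below the median span 30 of 31 members were up, against 489 of 1087 other listed genes. At or above it 3 of 5 members were up, against 206 of 1114 others.

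**Figure D2:**
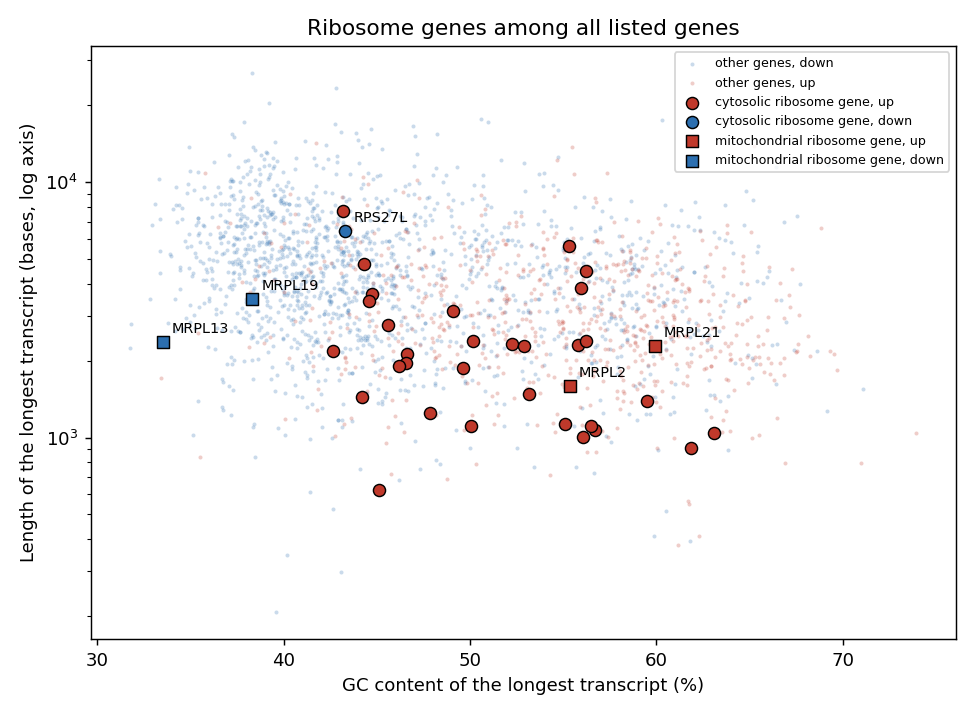
GC content (horizontal axis, %) and length (vertical axis, bases, log scale) of the longest GENCODE transcript of each listed gene, with the ribosome genes as large outlined symbols and the other listed genes as small points, coloured red for up and blue for down. Cytosolic ribosome genes listed as up spread from 42.6% to 63.1% GC, into the range where most other genes are down, and the 3 labelled genes in blue lie at 43.3% or below.

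The listed and the not listed canonical ribosomal protein genes differed in 2 features that bear on how reads are counted. The 29 listed genes had a median GC content of 52.2% and a median of 5 pseudogenes named after them in GENCODE release 29. The 52 genes that were not listed had 46.9% and 13.5 pseudogenes. With the shortest coding transcript the GC contents were 52.7% and 50.1%. The highest numbers were 50 for RPL12 among listed genes and 91 among the others. Ribosomal protein genes have many processed copies in the genome, to which reads can map equally well, and the sources used here do not say how such reads were counted. The part of these copies in which genes were listed was not tested. Among members, 229 such pseudogenes are named after 29 genes, and the 7 with none are the 3 listed as down (RPS27L, MRPL13 and MRPL19) and 4 up (MRPL21, RPL22L1, RPL28 and RPS10-NUDT3). The count goes by name only. RPS10, whose exons RPS10-NUDT3 shares, has 11, so RPS10-NUDT3 is not free of such copies. The number of small nucleolar RNA hosts did not separate the groups. Such RNAs, which guide the modification of ribosomal RNA, are annotated within 10 of 29 listed canonical genes (34.5%) and 18 of 52 not listed (34.6%). RPL4 holds 5 and RPL13A holds 4.

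**Figure D3:**
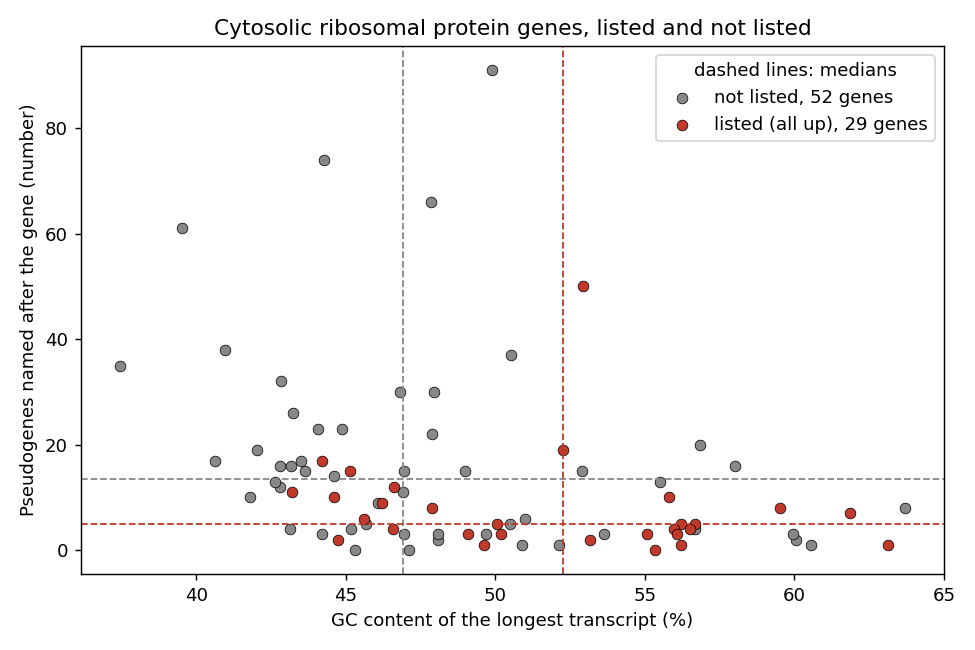
GC content of the longest transcript (horizontal axis, %) and number of pseudogenes named after the gene (vertical axis) for the 81 canonical cytosolic ribosomal protein genes, with the 29 listed ones, all up, in red and the 52 not listed in grey. Dashed lines are the medians, 52.2% and 5 for listed genes and 46.9% and 13.5 for the others.

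Exons of 17 members overlap exons of another annotated gene, on the same strand for 6 and on the opposite strand for 15. The sources used here give no strand setting, so reads of such members and their partners cannot be told apart with certainty. Of the partners, SYVN1, an endoplasmic reticulum ubiquitin ligase that overlaps FAU on the same strand, was listed as up, and ATG10, an autophagy enzyme opposite RPS23, was listed as down. No other partner was listed. Of the 19 members without such an overlap 18 were up, and RPS27L was down.

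The pyrimidine run was common to canonical ribosomal protein genes, listed and not listed. The RefSeq table holds start regions for 26 of the 36 members. Those without one include MRPL2, MRPL13, MRPL21, RPL8, RPL37 and RPS10-NUDT3. A run of 5 or more C or T within 20 bases on either side of an annotated start was present in 24 of 26 members (92.3%), in 63.8% of all 27305 genes of the table and in 64.1% of its protein-coding genes. With the stricter form, a run that reaches within 5 bases of the start, the numbers were 23 of 26 members (88.5%) and 42.6% of protein-coding genes. The same form was found in 22 of 23 listed canonical genes (95.7%) and in 38 of 42 not listed (90.5%), so the shares lay close together whether or not a gene was listed. Over all listed genes it was found in 47.0% of those up and 42.0% of those down.

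Run lengths varied among members. The longest at a start was 16 bases, in FAU, followed by 15 in RPS21 and 14 in RPL13A, and RPL12 and RPL32 had 6. RPL27 had a run of 10 bases within 20 bases of its start that did not reach within 5 bases of it. Not every run holds the annotated first base: those of RPL4, RPL10A and RPL32 begin after it, and those at the first starts of RPL10 and RPL19 end before it. RPS27L and MRPL19 were the only members in the table without a run of 5 within 20 bases of a start, with longest runs of 3 and 4 bases there. Within 40 bases on either side all 25 cytosolic members in the table had a run of 5, RPS27L included. RPS27 and RPS27L thus differed in the listed direction and in the sequence within 20 bases of the annotated start. RPL22L1 had a run of 10 bases and was listed as up. A link between start sequence and direction was not tested. Among genes not listed, 44 of 72 mitochondrial ribosomal genes (61.1%) had a run of 5 within 20 bases, close to the share of protein-coding genes. A run that reaches within 5 bases of a start was found in 27 of these 72 (37.5%). The listed initiation genes had a run that reaches within 5 bases of a start in 5 of the 13 in the table (38.5%), against 42.6% of protein-coding genes. EIF3D and EIF3F had runs of 14 bases there, and EIF1B, EIF2AK3, EIF2B2, EIF1AX, EIF2AK2 and EIF4E had none. Of the 3 listed elongation and release genes in the table, EEF2 had a run of 9 bases there, PELO 7, and EEF1G none. All 3, EEF1G included, had a run of 5 or more within 20 bases of a start.

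**Figure D4:**
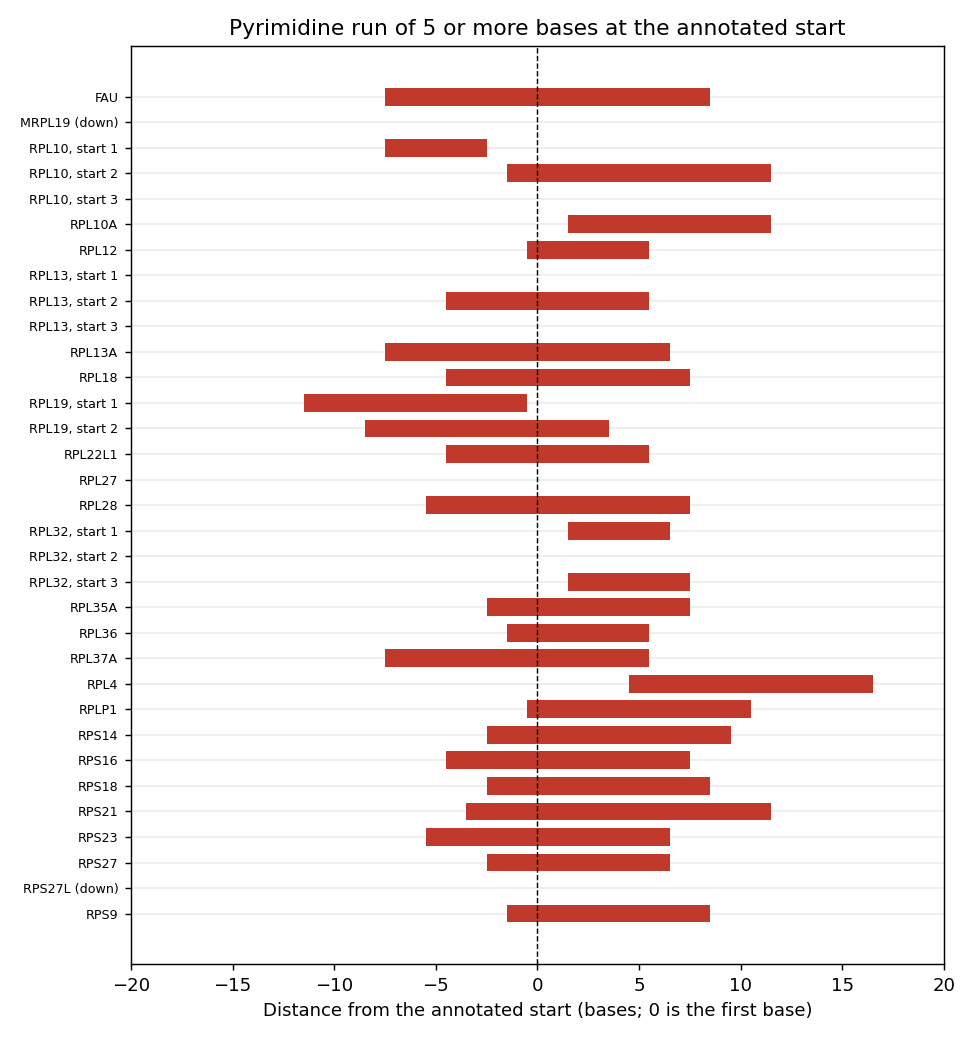
Position of the pyrimidine run of 5 or more bases that reaches within 5 bases of the annotated start (horizontal axis, distance in bases, 0 is the first base of the transcript) for every annotated start of the 26 members in the RefSeq table. Red bars are runs in members listed as up, and lines without a bar have no such run, as for MRPL19 and RPS27L, both listed as down.

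Around the start, 5 short motifs were searched on both strands of the 300-base windows, 250 bases before and 50 from the start. The ETS core CCGGAAG was present in 9 of 26 members (34.6%) and in 16.5% of protein-coding genes, the YY1 core GATGGCG in 5 (19.2%) and 6.92%, the NRF1 core GCATGCG in 2 (7.69%) and 6.07%, the E-box CACGTG in 2 (7.69%) and 10.9%, and the TATA box TATAAA in 1 (3.85%) and 12.4%. None of the 5 motifs is contained in another. In the last 100 bases before the start the ETS core was in 5 members (19.2%), the NRF1 core in 1 (3.85%), and the YY1 core and the E-box in none. Among protein-coding genes the shares there were also lower, at 9.52% (ETS), 3.36% (NRF1), 1.41% (YY1) and 5.44% (E-box). Listed and not listed canonical genes held the ETS core in 34.8% and 33.3%, the YY1 core in 17.4% and 31.0%, the NRF1 core in 8.70% and 7.14%, the E-box in 8.70% and 4.76%, and the TATA box in 0% and 11.9%. These shares rest on 23 and 42 genes, and their differences were not tested. A match is a description of the letters and not evidence of binding. The 250 bases before the start of RPS14, RPS27 and RPS27L show the range, with motif matches in capitals. RPS14 holds the ETS core on the opposite strand at 2 places, and RPS27L on its own strand close to the start. RPS27 holds none of the 5 motifs letter for letter in this stretch. It does hold tatataag, whose tataag differs from TATAAA only in the last base. Only exact letters were counted in all shares above, so such near matches to a TATA box are missed.
RPS14, chr5:150449740-150449989, minus strand: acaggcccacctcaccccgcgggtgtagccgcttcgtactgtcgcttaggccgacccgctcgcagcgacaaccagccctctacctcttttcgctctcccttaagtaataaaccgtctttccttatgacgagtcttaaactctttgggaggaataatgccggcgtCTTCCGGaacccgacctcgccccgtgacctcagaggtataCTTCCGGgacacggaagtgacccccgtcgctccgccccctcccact
RPS27, chr1:153990512-153990761, plus strand: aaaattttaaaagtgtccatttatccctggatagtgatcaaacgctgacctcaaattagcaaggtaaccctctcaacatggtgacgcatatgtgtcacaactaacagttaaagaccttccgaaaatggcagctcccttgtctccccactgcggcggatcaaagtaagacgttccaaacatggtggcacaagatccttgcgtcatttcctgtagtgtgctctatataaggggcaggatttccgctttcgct
RPS27L, chr15:63157478-63157727, minus strand: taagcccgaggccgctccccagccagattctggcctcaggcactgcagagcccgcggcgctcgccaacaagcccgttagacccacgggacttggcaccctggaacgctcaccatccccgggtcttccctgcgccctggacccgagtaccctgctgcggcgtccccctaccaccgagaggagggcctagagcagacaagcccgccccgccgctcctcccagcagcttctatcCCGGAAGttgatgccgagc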

How the data were processed

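The deposited file is 1 table of KEGG pathways for ezetimibe against control. The tools StringTie 1.3.0 and HISAT2 2.0.4 stand in the submitters' processing notes, and the file is named for edgeR. The sources used here give no settings, thresholds, genome build, annotation or strand. Per the file headers the authors give counts of genes (not reads) per pathway, the listed genes by direction, a rich factor (a ratio), and a p-value and q-value.

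From it, directions were counted over the members and over 12 lists with 346 genes matched by Ensembl ID. The members and lists were chosen with earlier results of these data known. No test was made, since members were chosen by the same contrast and genes are not replicates. GC content, length, span, pseudogenes, small nucleolar RNAs and overlaps come from GENCODE release 29 (2237 of 2238 genes matched, all 36 members). Start regions come from the RefSeq table (GRCh38.p14), where a gene with several starts counts if any start has the feature. The sequence search was tested on simulated data. Genes named from other lists are all listed genes of lists with 12 or fewer, otherwise the first 6 by symbol in each direction. EIF4EBP1 and RPS6KB1 were named in addition. Genes not listed and overlap partners were named as examples after their values were seen. Of 20 markers of 5 cell types (hepatocyte, cholangiocyte, fibroblast, immune and endothelial, 4 markers each), 0 were listed as up and 7 as down. The 7 were FGB (hepatocyte), SOX9 and SPP1 (cholangiocyte), COL1A1, COL1A2 and ACTA2 (fibroblast) and CD14 (immune). No endothelial marker was listed. For scale, 8.2% of the 8877 background genes had a call of up and 17.0% a call of down. A difference between markers and background was not tested. Protein sequences were not used here, and some genes that the naming rule takes are not reported here. Computation used pandas 2.3.3, SciPy 1.17.1 and NumPy 2.4.6 under Python 3.11.15, with Matplotlib 3.10.9 for plots.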

Additional observations from a re-analysis of the deposited data

How the results depend on the processing

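The share of members listed as up, 91.7% (95% interval by the exact Clopper-Pearson method, for counting error alone, 77.5 to 98.2), was 91.9% with MT-RNR1, 91.7% for members under no other pathway, which is all of them, and 96.9% for cytosolic members. Counting choices made after seeing the data moved it outside that interval. It was 100% (29 genes) without paralogs, the read-through gene and mitochondrial members. For members with no pseudogene named after them it was 57.1% (4 of 7). Their own intervals were 88.1 to 100 and 18.4 to 90.1. Of those 7 genes only RPL28 is canonical cytosolic and 3 are mitochondrial, so that choice largely repeats the split by compartment and paralog. The median GC content, 50.1% for members and 47.0% for all listed genes, was 52.6% and 49.0% with the mean over all transcripts, and 51.8% and 51.0% with the shortest coding transcript. The share with a pyrimidine run stayed between 88.5% and 96.2% over the 6 other settings. Over the same settings the share of protein-coding genes ran from 42.6% to 82.6%. The members reached 96.2% with runs of 4 or more bases and with 40 bases on each side. In those settings 82.6% and 81.6% of protein-coding genes had a run too. In the last 100 bases before the start the E-box and YY1 shares were both 0%, so those matches lie elsewhere in the window. In the same 100 bases the ETS share fell from 34.6% to 19.2% and the NRF1 share from 7.69% to 3.85%, and the TATA box stayed at 3.85%. Protein-coding genes held the E-box in 5.44%, YY1 in 1.41%, ETS in 9.52%, NRF1 in 3.36% and the TATA box in 6.72% there. The comparison without near-identical proteins was not run, since no protein table was used. No paired analysis was possible because there is 1 library per condition, and no library could be left out. The lack of levels and depth leaves the size of every change unknown.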
